A study of Mus musculus with 8 samples.

Results

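The mouse mitochondrial genome carries 37 genes, and all 37 were found among the 55471 gene identifiers of the deposited tables by a gene symbol that starts with mt-. They comprised 13 protein-coding genes, 22 tRNA genes and 2 rRNA genes. RNA was sequenced from motor neurons differentiated from the HB9::GFP mouse embryonic stem cell line HBG3, in which green fluorescent protein marks motor neurons, after 3 days on the plate. The target was the long noncoding RNA Lhx1os, pulled down by biotin-labelled antisense probes of 20 nt that form an ODD set and an EVEN set against its isoforms. Probes against the bacterial LacZ mRNA served as the negative control, and Input was the sample against which each pull-down was set. Each of these 4 groups had 2 libraries, all from 1 cell line, and the replicate number marked 2 independent pull-down experiments, called experiment 1 and experiment 2 here. Paired values are given in that order throughout.

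Mitochondrial DNA is transcribed from both strands into long precursors, and the tRNAs that lie between most of the other genes mark where these precursors are cut. The coding genes make subunits of respiratory complexes I, III and IV and of the ATP synthase, while the remaining subunits of these complexes are encoded in the nucleus. Pieces of mitochondrial DNA have also been inserted into nuclear chromosomes, so a short read can match both a mitochondrial gene and a nuclear copy of it. Lhx1os is a nuclear gene, whereas mitochondrial RNAs are made and translated inside the organelle.

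A nuclear copy of several neighbouring mitochondrial genes was annotated on chromosome 1, and the stretches shown here compare it and a second copy, on chromosome 2, with the mitochondrial sequence. Each is written 5′ to 3′ along the gene on GRCm38, with capitals marking bases that differ from the mitochondrial gene above it. The first set is the start of mt-Co2, a subunit of cytochrome c oxidase (chrM:7013-7102, plus strand), beside the same stretch of the pseudogenes Gm28661 (chr1:24615476-24615565, minus strand) and Gm13341 (chr2:22587873-22587962, minus strand).
mt-Co2: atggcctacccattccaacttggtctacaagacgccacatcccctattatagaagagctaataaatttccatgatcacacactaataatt
Gm28661: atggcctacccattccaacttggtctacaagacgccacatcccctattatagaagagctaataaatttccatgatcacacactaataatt
Gm13341: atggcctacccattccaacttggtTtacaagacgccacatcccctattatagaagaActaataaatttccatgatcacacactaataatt
Gm28661 had 0 differences over these 90 bases and Gm13341 had 2. The second set is the start of mt-Co1, the catalytic subunit of cytochrome c oxidase (chrM:5328-5417, plus strand), beside Gm13340 (chr2:22589558-22589647, minus strand), the only annotated copy of its 5′ part.
mt-Co1: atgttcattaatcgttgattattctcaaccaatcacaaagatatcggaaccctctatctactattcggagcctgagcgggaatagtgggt
Gm13340: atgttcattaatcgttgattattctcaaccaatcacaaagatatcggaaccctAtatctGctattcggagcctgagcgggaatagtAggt
Gm13340 differed at 3 of the 90 bases. The third set is the start of mt-Nd3, a subunit of complex I (chrM:9459-9548, plus strand), beside Gm28438 (chr1:24613030-24613119, minus strand).
mt-Nd3: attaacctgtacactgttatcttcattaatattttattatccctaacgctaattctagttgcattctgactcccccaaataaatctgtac
Gm28438: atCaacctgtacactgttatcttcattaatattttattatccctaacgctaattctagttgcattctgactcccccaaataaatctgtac
Gm28438 differed at 1 of the 90 bases. The last set is mt-Atp8, a small ATP synthase subunit, in full (chrM:7766-7969, plus strand), and the tRNA for methionine, mt-Tm (chrM:3845-3913, plus strand), neither of which had a 50-base window in an annotated nuclear transcript.
mt-Atp8: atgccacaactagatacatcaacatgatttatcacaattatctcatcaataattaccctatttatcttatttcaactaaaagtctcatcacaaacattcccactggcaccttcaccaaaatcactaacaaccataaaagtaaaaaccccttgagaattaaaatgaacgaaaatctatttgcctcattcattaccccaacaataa
mt-Tm: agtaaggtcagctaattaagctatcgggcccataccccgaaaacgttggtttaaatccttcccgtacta

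The libraries held between 7632775 counts in LacZ replicate 1 and 24628435 in Input replicate 1. No molecular identifiers were recorded, so the intervals and floors given here hold for counting error alone. Motor neuron and neuron markers had counts in every group (7 of 7 and 6 of 6 genes), while of 4 pluripotency markers Pou5f1 and Dppa5a were at 0 in all groups. Of the other pluripotency markers, Nanog had counts in every group and Zfp42 in Input only. Summed levels in CPM, counts scaled to a fixed library total, ranged from 177 to 349.7 for the motor neuron list over all 8 libraries. They ranged from 2689 to 4247 for the neuron list and from 2142 to 2920 for the neural progenitor list. The astrocyte and radial glia list ranged from 604 to 1288 and the oligodendrocyte list from 80.3 to 695. The fibroblast list ranged from 99.8 to 217 and the pluripotency list from 0 to 0.453. In bulk samples such as these, fewer cells of a type and less RNA per cell cannot be told apart.

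Almost all mitochondrial counts came from the coding genes. Of 495544 counts on the 37 genes over all libraries, 495438 (99.98%) fell on the 13 coding genes, 105 on the 2 rRNA genes and 1 on the 22 tRNA genes. The single tRNA count was on mt-Tm in Input replicate 2, and the other 21 tRNA genes were at 0 in all 8 libraries. A count of 0 allows a share of up to 1.22e-05% in Input replicate 1, the deepest library, and up to 3.93e-05% in LacZ replicate 1, the shallowest. The library kit removed ribosomal RNA, per the labels' protocols, and the tRNA genes were 59 to 75 bases long in the table.

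Of all counts, 0.480% and 0.682% came from the coding genes in the Inputs of experiments 1 and 2. In the LacZ pull-downs they took 0.568% and 0.235%, in ODD 0.464% and 0.207%, and in EVEN 0.503% and 0.246%. All 3 pull-downs of experiment 2 were thus below both Inputs, whereas LacZ and EVEN of experiment 1 lay between them and ODD of experiment 1 just below. The mean share was 0.210 percentage points lower in the pull-downs than in Input (means of 0.370% and 0.581%). An exact two-sided permutation test over the 8 libraries gave p = 0.214, or 0.643 after adjustment over the 3 classes. It permuted the libraries without regard to experiment, although libraries of the same experiment deviated together. With these libraries 0.0714 is the smallest p that this test, which doubles the one-sided p, can give. The difference was -0.109 points without Input replicate 2 and -0.311 points without Input replicate 1.

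The 12S rRNA gene mt-Rnr1 had 12 and 18 counts in the Inputs, 12 and 2 with LacZ, 9 and 2 with ODD, and 12 and 1 with EVEN. Its 3 pull-downs of experiment 2 were the lowest libraries. The 16S rRNA gene mt-Rnr2 had 0 and 8 counts in the Inputs, 4 and 7 with LacZ, 5 and 2 with ODD, and 4 and 7 with EVEN, with no order between groups. The share of the rRNA class gave p = 0.786 by the same exact permutation test and that of the tRNA class p = 0.5, with adjusted p of 0.786 and 0.75.

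Levels per gene are given in FPKM, the deposited unit that divides counts by gene length and library total. Between genes, FPKM allows for length but not for sequence shared with nuclear copies, which is given below. mt-Co1 was the gene of highest FPKM in the whole table in both Input libraries. It ranked 2 in all 3 pull-downs of experiment 1, and 5, 5 and 3 in LacZ, ODD and EVEN of experiment 2. Its level was 1711 and 1831 FPKM in the Inputs, 2668 and 1047 with LacZ, 2191 and 1025 with ODD, and 2268 and 1245 with EVEN. The pull-downs of experiment 1 were above both Inputs and those of experiment 2 below both.

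The other mitochondrial subunits of cytochrome c oxidase were far lower in FPKM, and nearly all of their sequence is shared with nuclear copies. mt-Co2 was at 5.94 and 9.34 FPKM in the Inputs, 17.8 and 5.90 with LacZ, 7.80 and 6.83 with ODD, and 12.3 and 4.68 with EVEN. mt-Co3 was at 8.34 and 7.59 FPKM in the Inputs, 18.2 and 5.49 with LacZ, 9.54 and 8.81 with ODD, and 10.8 and 3.53 with EVEN. For both genes Input and pull-downs overlapped, and LacZ replicate 1 was the highest library.

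mt-Cytb, the mitochondrial subunit of complex III, came next after mt-Co1 among the members in every library. Its level was 588 and 936 FPKM in the Inputs, 473 and 220.5 with LacZ, 422 and 174 with ODD, and 445 and 192 with EVEN. All 6 pull-downs were below both Inputs. Here and for the genes that follow, the share of all genes with this order is not given.

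Of the 7 complex I genes, 5 were well above the floor in every library. mt-Nd1 was at 430.4 and 864 FPKM in the Inputs, 412 and 162 with LacZ, 317 and 112.5 with ODD, and 412 and 136 with EVEN. mt-Nd2 was at 224 and 526 FPKM in the Inputs, 119.9 and 71.3 with LacZ, 92.2 and 28.3 with ODD, and 132 and 37.6 with EVEN. Both genes were lower in all 6 pull-downs than in either Input, though mt-Nd1 in LacZ and EVEN of experiment 1 came close to the Input of that experiment.
mt-Nd4 was at 233 and 421 FPKM in the Inputs, 147 and 71.7 with LacZ, 100.4 and 37.9 with ODD, and 137 and 46.8 with EVEN. mt-Nd5 was at 235 and 481 FPKM in the Inputs, 109 and 61.5 with LacZ, 82.0 and 33.4 with ODD, and 119.6 and 33.7 with EVEN. Both again had every pull-down below both Inputs. mt-Nd6, the only coding gene on the minus strand, was at 141 and 128 FPKM in the Inputs, 132 and 52.2 with LacZ, 128 and 40.9 with ODD, and 118 and 39.4 with EVEN. Its pull-downs of experiment 1 were close to the Inputs and those of experiment 2 well below.
mt-Nd5 and mt-Nd6 overlap by 14 bases on opposite strands (chrM:11742-13565 and chrM:13552-14070), and reads of the overlap cannot be assigned from these tables, since the sources used here do not state whether counting used the strand.

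The remaining complex I genes were near the floor. mt-Nd3 was at 1.28 and 2.10 FPKM in the Inputs, 4.52 and 1.29 with LacZ, 2.06 and 1.40 with ODD, and 2.17 and 0.995 with EVEN. mt-Nd4l had 2 and 5 counts in Input, 1 in EVEN replicate 1 and 0 in the other 5 pull-downs. Of the ATP synthase subunits, mt-Atp6 was at 5.72 and 8.80 FPKM in the Inputs, 4.04 and 2.90 with LacZ, 2.92 and 2.43 with ODD, and 3.45 and 0.763 with EVEN, with all 6 pull-downs below both Inputs. mt-Atp8 had 7 and 16 counts in Input and 0 in all 6 pull-downs. Set against the floor of 3 counts over the 6 pull-downs together, its share of counts was 11.1-fold lower there. This allows neither for counting error in Input nor for spread between libraries. By library, the upper limits of exact binomial 95% intervals on the ratio to Input were 2.24, 1.36 and 1.44 in LacZ, ODD and EVEN of experiment 1. In experiment 2 they were 0.477, 0.518 and 0.461.

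**Figure D1:**
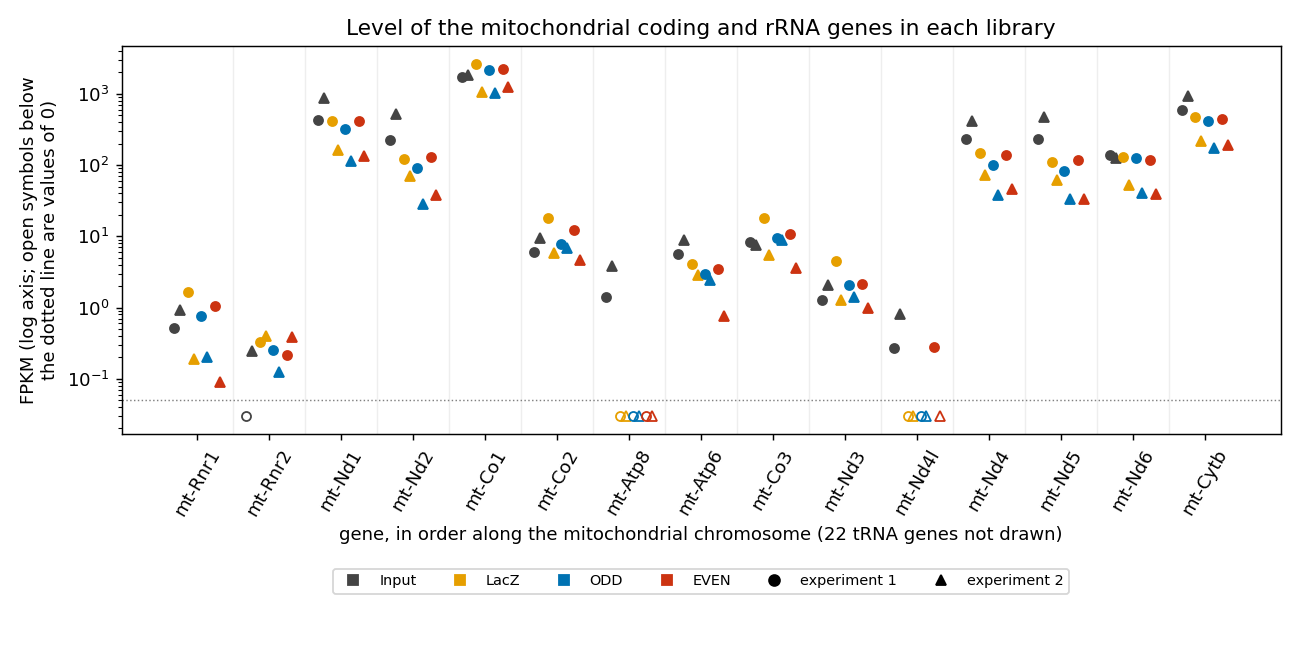
FPKM (log axis) of the 13 coding and 2 rRNA genes in each library, in order along the mitochondrial chromosome, with color for the group and shape for the experiment. mt-Co1 reached 2668 FPKM in LacZ replicate 1, while neighbours from mt-Co2 to mt-Nd4l stayed at or below 18.2 FPKM in every library.

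The low coding genes lay side by side, from mt-Co2 (start at chrM:7013) to mt-Nd4l (end at chrM:10173). To relate this to nuclear copies, each member was cut into overlapping windows of 50 bases, and each window was looked up in all annotated nuclear transcripts. All windows of mt-Co2 and 99.9% of those of mt-Co3, 99.5% of mt-Atp6, 98.8% of mt-Nd4l and 98.0% of mt-Nd3 were present there. These 5 genes were at 0.273 to 9.34 FPKM in Input. The share was 62.2% for mt-Nd4, 51.1% for mt-Co1, 8.2% for mt-Nd2 and 7.6% for mt-Nd5, and these 4 genes were at 224 to 1831 FPKM in Input. It was 0 for mt-Nd1, mt-Nd6 and mt-Cytb, which were at 128 to 936 FPKM. Among the coding genes, those whose windows were nearly all shared were lower in Input than the 7 other coding genes, with mt-Atp8 set aside. The rRNA and tRNA genes, with at most 1.0% of windows shared for mt-Rnr1 and mt-Rnr2, were low as well.

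mt-Atp8 had no window in a nuclear transcript and was at 1.39 and 3.82 FPKM in Input. It lies across the boundary of an unannotated interval of 233 bases between the pseudogenes Gm10925 and Gm28661 on chromosome 1 (chr1:24614652-24614884), whose mitochondrial counterpart (chrM:7694-7926) has the same length of 233 bases. A genome sequence was not used here, so the letters of that interval on chromosome 1 were not read. The last 43 bases of mt-Atp8 overlap mt-Atp6.

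A search of annotated transcripts found 11 nuclear copies of at least 100 aligned bases at 95% identity or more. On chromosome 1 there were 7, at 99.7% to 100% identity to the mitochondrial sequence, within 4663 bases (chr1:24611535-24616197) that parallel chrM:6390-11042. On chromosome 2 there were 3, at 95.9% to 97.6%, and 1 was on chromosome 13, at 95.2%. The 6 copies of largest count were Gm13340 with 1369 counts over all libraries, Gm28437 and Gm29216 with 386 each, Gm28439 with 322, Gm28661 with 282 and Gm10925 with 189. They align best to mt-Co1, mt-Co3, mt-Co1, mt-Nd4, mt-Co2 and mt-Atp6 in that order. All copies together held 0.527% to 0.809% as many counts as the 37 mitochondrial genes in 7 libraries and 1.78% in LacZ replicate 2. Counts of the shared genes were thus low in both places. How reads that match several places were treated was not given in the sources used here, and its part in these levels was not tested.

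**Figure D2:**
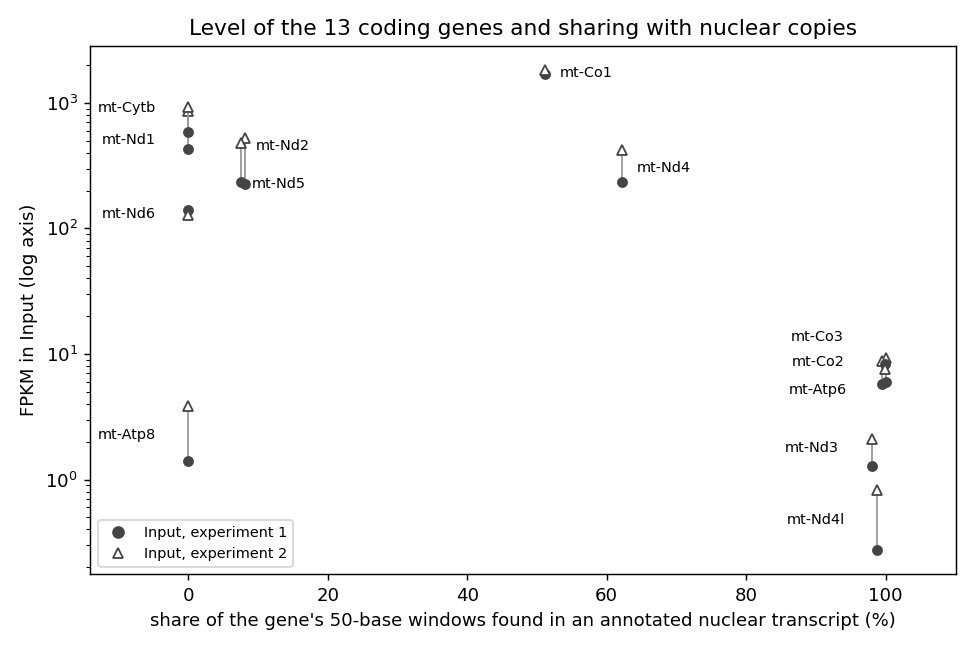
Share of each coding gene's 50-base windows found in an annotated nuclear transcript (horizontal axis, %) against its FPKM in the 2 Input libraries (log axis), joined by a line. The 5 genes at 98.0% or more lay at or below 9.34 FPKM, and mt-Atp8, at 0%, was the only other coding gene below 128 FPKM in Input.

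For the comparison with Input, 11 members passed the filter on low counts: 10 coding genes and mt-Rnr1. The other 26 (mt-Atp8, mt-Nd3, mt-Nd4l, mt-Rnr2 and the 22 tRNA genes) were not tested. Changes are log2 fold changes with their standard error from edgeR's quasi-likelihood test, with p-values adjusted over all 16524 genes tested and 0.05 as the threshold. The 3 comparisons share the Input libraries.

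No member passed the threshold against Input in any pull-down. In LacZ, the control capture, 0 of 11 were called, with 3 at an unadjusted p under 0.05. Of all genes tested 7.41% were called, 0.430% as lower. DESeq2 called 2 members there, all lower (10.1% of all genes called, 1.39% as lower). In ODD 0 of 11 were called (6.84% of all genes, 0.375% as lower), with 4 at an unadjusted p under 0.05. DESeq2 called 3, all lower (9.44% of all genes, 1.28% as lower). In EVEN 0 of 11 were called (5.66% of all genes, 0.284% as lower), with 4 at an unadjusted p under 0.05. DESeq2 called 3, all lower (8.79% of all genes, 1.26% as lower). The members had a median log2 change of -1.11 in LacZ, -1.35 in ODD and -1.23 in EVEN, beside medians over all genes tested of -0.05, -0.03 and -0.0019. These medians rest on single libraries: LacZ had -0.37 without its replicate 2 and -1.85 without its replicate 1. ODD had -0.46 and -1.77 in the same way, and EVEN -0.42 and -2.08, over the 11 or 12 members tested in each fit.

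The complex I genes mt-Nd5, mt-Nd2 and mt-Nd4 had the most negative values. For mt-Nd5 the log2 change was -2.10 ± 0.72 in LacZ (adjusted p = 0.161), -2.63 ± 0.73 in ODD (0.0943) and -2.21 ± 0.72 in EVEN (0.153). For mt-Nd2 it was -2.01 ± 0.78, -2.64 ± 0.80 and -2.13 ± 0.79 in the same order, and for mt-Nd4 -1.62 ± 0.68, -2.24 ± 0.69 and -1.82 ± 0.68. mt-Nd1 had -1.21 ± 0.75, -1.59 ± 0.75 and -1.23 ± 0.75, and mt-Cytb -1.17 ± 0.60, -1.35 ± 0.60 and -1.24 ± 0.60. For these 5 genes the value with the control probes lay within 1 standard error of the values with both Lhx1os probe sets. mt-Atp6 had -1.11 ± 0.59, -1.44 ± 0.60 and -1.76 ± 0.61, and mt-Nd6 -0.59 ± 0.70, -0.67 ± 0.70 and -0.76 ± 0.70.

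The cytochrome c oxidase genes and the tested rRNA gene were near 0 in comparison. mt-Co1 had 0.03 ± 0.54 in LacZ, -0.14 ± 0.54 in ODD and 0.0043 ± 0.54 in EVEN, and mt-Co2 0.58 ± 0.61, -0.066 ± 0.61 and 0.17 ± 0.61. mt-Co3 had 0.52 ± 0.64, 0.19 ± 0.64 and -0.14 ± 0.64, and mt-Rnr1 0.23 ± 1.14, -0.52 ± 1.17 and -0.28 ± 1.14. Each of these 4 genes changed direction under at least 1 alternative setting, so no direction is given for them.

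Libraries of the same number deviated together from their group means, and with the replicate number as a block some members passed. Then 2 of 11 were lower in LacZ (7.00% of all genes were lower), 4 of 11 in ODD (6.55%) and 4 of 11 in EVEN (6.41%), and none was higher. mt-Nd4 and mt-Nd5 were lower in all 3, at -1.87 ± 0.52 and -2.33 ± 0.59 in LacZ (adjusted p = 0.0441 and 0.0302). In ODD they had -2.54 ± 0.54 and -2.92 ± 0.61 (0.0165 and 0.0153), and in EVEN -2.12 ± 0.53 and -2.55 ± 0.60 (0.0313 and 0.0260). mt-Nd2 was lower in ODD and EVEN, mt-Cytb in ODD and mt-Atp6 in EVEN. With the same block, 2 of 3 oligodendrocyte, 1 of 5 neural progenitor and 1 of 5 fibroblast markers were lower in each pull-down. Of 6 neuron markers only Tubb3 was lower, in LacZ and EVEN (-0.48 and -0.44). Of 2 tested astrocyte and radial glia markers only Slc1a3 was lower, in ODD (-0.73). Of 7 motor neuron markers only Chat was higher in LacZ, ODD and EVEN, at 0.69, 0.81 and 0.94. Of all 16524 genes, 2092, 2086 and 2123 were higher in that order. Without the block the 7 motor neuron markers had medians of -0.014, 0.053 and -0.0097. The part of these markers in the members' values was not tested. When each library's trend on GC content was removed as well, 7, 8 and 7 of 11 members were lower in LacZ, ODD and EVEN, while the share of all genes that were lower rose as well, to 18.2%, 18.5% and 17.3%. The tested members are poor in G and C, and only 9.29% of the genes tested had a GC content at or below that of the tested coding gene richest in it.

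Capture with the Lhx1os probes was then set against the LacZ probes. In ODD against LacZ 0 of 11 members were called (0% of all genes tested), with 0 at an unadjusted p under 0.05 and 0 called by DESeq2. In EVEN against LacZ 0 of 11 were called as well (0% of all genes), again with 0 and 0. The values lay between -0.75 ± 1.25 (mt-Rnr1) and -0.08 ± 0.71 (mt-Nd6) in ODD, with a median of -0.38. In EVEN they lay between -0.65 ± 0.65 (mt-Co3) and -0.016 ± 0.74 (mt-Nd1), with a median of -0.17. Without the block, all 11 were below 0 in both comparisons, which share the LacZ libraries. All genes tested had medians of 0.0070 and 0.021. Without LacZ replicate 1 the members' medians were 0.46 and 0.59. The standard errors were 0.54 or more for every member. With the replicate block, which changed no call, they were as low as 0.32 for mt-Co1 and 0.34 for mt-Nd6, with -0.14 and -0.13 in ODD against LacZ and 0.05 and -0.20 in EVEN against LacZ.

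The longest exact stretch that a member's RNA shares with an annotated Lhx1os transcript bears on capture by probes antisense to Lhx1os. It was 14 bases in mt-Nd5, 12 in mt-Co1, 11 in mt-Rnr1 and mt-Nd6, and 10 or fewer in all other members. Over all genes tested, 9.26% shared 14 bases or more and 31.7% shared 12 or more. No member reached the 20 nt of a probe, and only 1.51% of all genes tested did. The probes' own sequences were not used here, so capture of members by the probes was not tested.

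The level of the coding class against Input differed between the experiments. Relative to the Input of the same experiment, the coding genes' share of counts was 1.18, 0.966 and 1.05 times as large in LacZ, ODD and EVEN of experiment 1. In experiment 2 it was 0.345, 0.303 and 0.362 times as large. The 3 ratios of experiment 1 did not overlap those of experiment 2. Input itself moved the other way for most genes: the FPKM of experiment 2 over that of experiment 1 was 2.35 for mt-Nd2, 2.04 for mt-Nd5, 2.01 for mt-Nd1, 1.80 for mt-Nd4, 1.59 for mt-Cytb, 1.07 for mt-Co1, 0.910 for mt-Co3 and 0.909 for mt-Nd6.

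Gene by gene, mt-Nd2 in LacZ, ODD and EVEN was at 0.534, 0.411 and 0.588 of Input in experiment 1 and at 0.135, 0.0538 and 0.0715 in experiment 2. mt-Nd5 was at 0.465, 0.349 and 0.509 in experiment 1 and at 0.128, 0.0694 and 0.0700 in experiment 2. mt-Co1 was at 1.56, 1.28 and 1.33 in experiment 1 and at 0.572, 0.560 and 0.680 in experiment 2. For all 3 genes the experiments did not overlap, and mt-Co1 lay on either side of its Input.
mt-Cytb was at 0.805, 0.718 and 0.757 in experiment 1 and at 0.236, 0.186 and 0.205 in experiment 2. mt-Nd6 was at 0.936, 0.909 and 0.837 in experiment 1 and at 0.409, 0.320 and 0.308 in experiment 2. mt-Nd1 was at 0.958, 0.736 and 0.957 in experiment 1 and at 0.187, 0.1302 and 0.157 in experiment 2. In these genes, too, every value of experiment 2 was below every value of experiment 1. The 3 ratios of an experiment share 1 Input library. How many of all genes separate in this way is not given here.

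**Figure D3:**
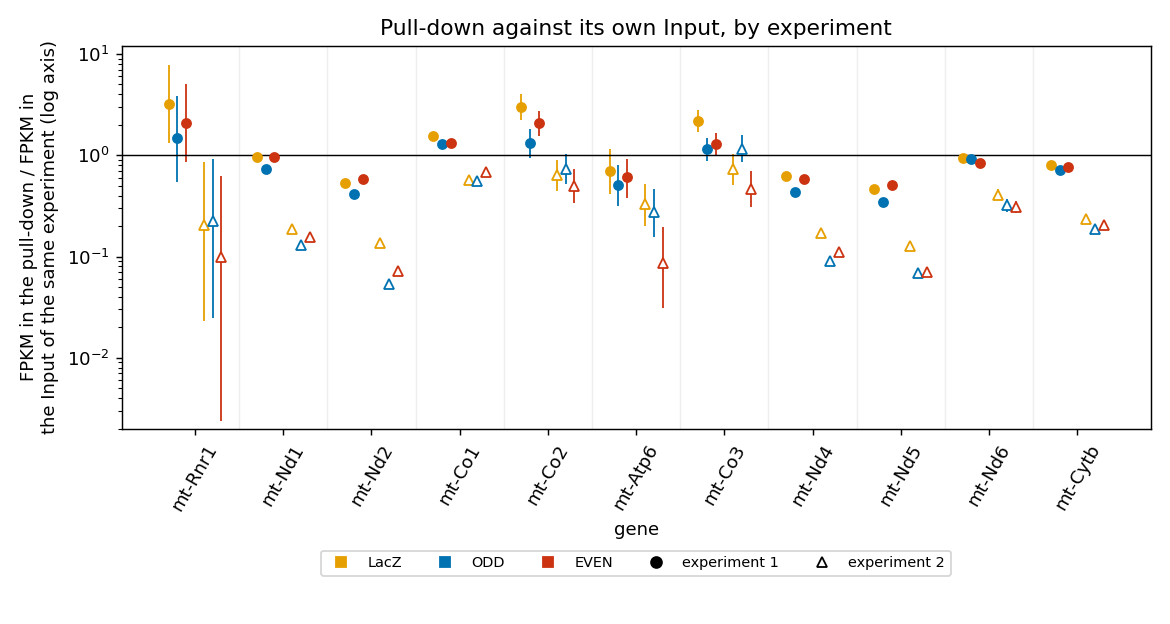
FPKM in each pull-down divided by FPKM in the Input of the same experiment (log axis) for the 11 members tested, with 95% exact binomial intervals that cover counting error only. Filled circles (experiment 1) lie above open triangles (experiment 2) in every gene but mt-Co3, and mt-Co1 lies above 1 in experiment 1 and below 1 in experiment 2.

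In the fit with group and replicate, 2 of 11 members were lower in experiment 2 than in experiment 1 (12.4% of all genes tested were lower) and none was higher. They were mt-Nd6, at -1.16 ± 0.24 (adjusted p = 0.0124), and mt-Co1, at -0.82 ± 0.23 (0.0360). This count rests on single libraries. Leaving out any LacZ or EVEN library gave 0 of the 11 or 12 members then tested (6.30% to 6.47% of all genes were lower). Leaving out either ODD library gave 1 of 12 (5.61% of all genes). Leaving out Input replicate 1 or 2 gave 10 of 12, while the share of all genes that were lower rose to 20.0% and 20.1%.

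A second fit, added after the ratios had been seen, took the 3 pull-downs of an experiment as its replicates, whatever their probes, and let the pull-down change differ between experiments. Each experiment then has 1 Input library, which has no spread of its own and is assumed to vary like the pull-downs, and the Inputs themselves differed by up to 2.35-fold for these genes. The p-values of this fit restate the separation that prompted it and are no independent support. Within experiment 1, 3 of 11 members were lower in the pull-downs than in Input (15.0% of all genes were lower): mt-Nd5 at -1.20 ± 0.30, mt-Nd4 at -0.89 ± 0.29 and mt-Cytb at -0.42 ± 0.12. Within experiment 2, 9 of 11 were lower (19.2% of all genes), from mt-Nd2 at -3.53 ± 0.36 to mt-Co1 at -0.72 ± 0.15. mt-Co2 at -0.69 ± 0.37 and mt-Co3 at -0.37 ± 0.44 did not pass. Among the pull-downs alone, 10 of 11 were lower in experiment 2 than in experiment 1 (21.3% of all genes), all but mt-Atp6.

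In that fit the difference between the experiments' pull-down changes passed for 8 of 11 members, all lower in experiment 2 (4.75% of all genes were). It was -1.84 ± 0.18 for mt-Cytb (adjusted p = 0.00155), -2.46 ± 0.29 for mt-Nd1 (0.00341), -1.35 ± 0.19 for mt-Nd6 (0.00663) and -1.18 ± 0.23 for mt-Co1 (0.0232). It was -2.29 ± 0.46 for mt-Nd5 (0.0264), -2.13 ± 0.44 for mt-Nd4 (0.0277), -3.53 ± 0.77 for mt-Rnr1 (0.0345) and -2.54 ± 0.58 for mt-Nd2 (0.0391). The values of mt-Co2, mt-Atp6 and mt-Co3 were -1.72 ± 0.53, -1.37 ± 0.58 and -0.94 ± 0.61 and did not pass. Fewer members passed without ODD replicate 2 or without EVEN replicate 1.

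Cell type markers moved with the experiment as well. In experiment 2, 5 of 7 motor neuron markers were higher (15.0% of all genes were) with a median of 1.03, and 4 of 6 neuron markers were higher with a median of 0.51. Lower were 3 of 5 neural progenitor, 2 of 2 tested astrocyte and radial glia, 2 of 5 fibroblast and 3 of 3 oligodendrocyte markers (12.4% of all genes were lower). Their medians were -0.79, -0.73, -0.49 and -2.63. The part of these markers in the mitochondrial values was not tested.

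Within the coding class, the pull-downs held relatively more mt-Co1. It made up 55.1% and 41.5% of the coding counts in Input and 68.9% to 78.0% in the 6 pull-downs. mt-Nd5 made up 8.94% and 12.9% in Input and 2.49% to 4.78% in the pull-downs, and mt-Nd2 4.85% and 8.02% against 1.42% to 3.15%. For these 3 genes Input and pull-downs did not overlap in either experiment. These shares are bound to each other, since they sum to 100% within a library.

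**Figure D4:**
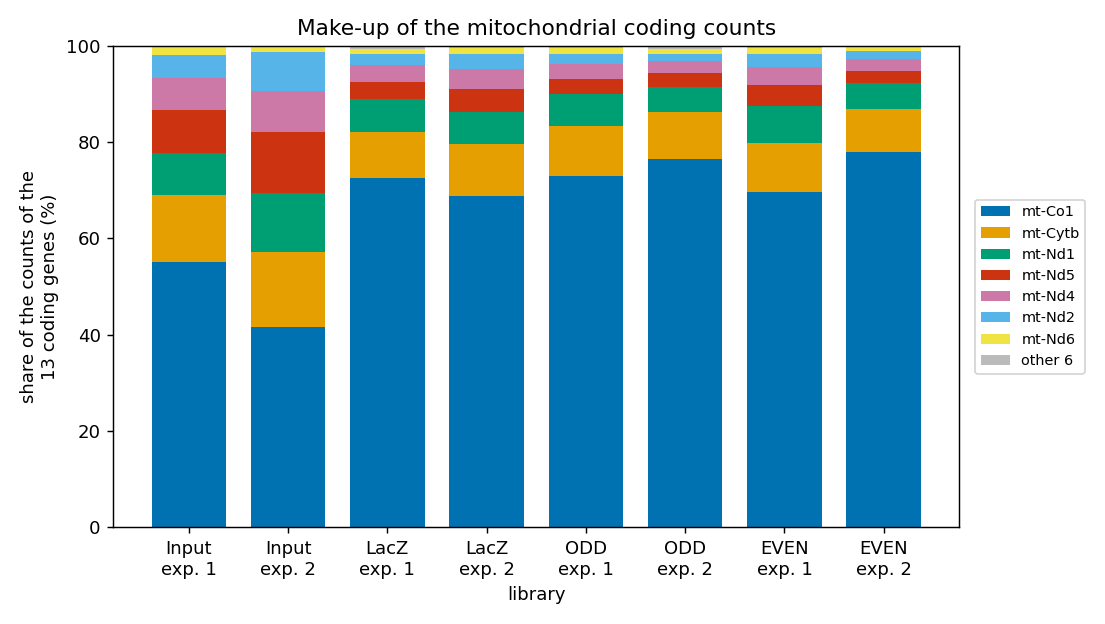
Share of the counts of the 13 coding genes (%) taken by each gene in each library, as stacked bars. mt-Co1 took 68.9% to 78.0% in the 6 pull-downs and 41.5% and 55.1% in the 2 Inputs.

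Among genes outside the mitochondrial genome, those with a profile over the 8 libraries most like the mean coding member were Nop10, Uqcr11, Cox6a1, Tmem258 and Rpl36. Likeness was the root mean square distance of centred log2(CPM + 1) values, which was 0.12 for Nop10, 0.17 for Uqcr11, 0.19 for Cox6a1, 0.22 for Tmem258 and 0.23 for Rpl36. For the coding members themselves it ran from 0.14 (mt-Cytb) to 0.63 (mt-Co3). Uqcr11 and Cox6a1 encode nuclear subunits of complexes III and IV, Nop10 a protein of small nucleolar ribonucleoproteins, and Rpl36 a protein of the cytosolic ribosome.

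The nuclear partners of the mitochondrial genes were examined as 4 lists. Of 99 nuclear-encoded respiratory chain and ATP synthase subunits, 92 were tested, and 0 were called against Input in LacZ, ODD or EVEN, with medians of -0.15, -0.13 and -0.10. The largest changes in LacZ were those of Atp5e, at -1.05 ± 0.28 (adjusted p = 0.0766), and Atp5mpl, at -0.80 ± 0.34 (0.2697), both ATP synthase subunits. With the replicate block Atp5e was lower, at -1.08 ± 0.24 (0.0183), as it was in ODD and EVEN at -1.06 ± 0.24 and -1.14 ± 0.24. In ODD the block also gave Ndufs1, a core subunit of complex I, as higher at 1.36 ± 0.36, and Ndufaf7, an assembly factor that the list took in by its symbol, at 0.51 ± 0.13. These were 2 of 92, beside 2086 of all 16524 genes tested that were higher in ODD with the block. Of 78 mitochondrial ribosomal proteins, 77 were tested and 0 called in each pull-down, with medians of -0.15, -0.11 and -0.06. Mrpl42 had -0.76 ± 0.27 (0.173) and Mrps36 -0.72 ± 0.37 (0.369) in LacZ, and with the block Mrpl38 was lower in ODD, at -0.43 ± 0.12. The block thus gave 1 of 92 subunits and 1 of 77 ribosomal proteins as lower in ODD, beside 6.55% of all genes.

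The machinery that makes and processes mitochondrial RNA gave no calls against Input without the replicate block. Of 14 genes for mitochondrial RNA and DNA synthesis all were tested, with medians of 0.07, 0.04 and 0.08 in LacZ, ODD and EVEN. Ssbp1, the mitochondrial single-stranded DNA-binding protein, had 0.58 ± 0.23 in LacZ (adjusted p = 0.237), and Polg2, a subunit of the mitochondrial DNA polymerase, 0.46 ± 0.26 (0.437). Of 33 genes for RNA processing and decay 32 were tested, with medians of -0.0019, 0.01 and 0.01. Pnpt1, a polynucleotide phosphorylase, had 0.50 ± 0.21 (0.257), and Trmu, a tRNA-modifying enzyme, 0.47 ± 0.24 (0.356). With the replicate block Ssbp1 was higher in ODD, at 0.70 ± 0.20 (0.0484), and in EVEN, at 0.70 ± 0.20 (0.0492). Trmu was then higher in ODD, at 0.76 ± 0.15 (0.0134), and Trmu, Pnpt1 and Ptcd3 in EVEN, at 0.69 ± 0.15, 0.72 ± 0.17 and 0.57 ± 0.14. These calls were 1 of 14 synthesis genes in ODD and in EVEN, and 1 and 3 of 32 processing genes. With the block, 2086 and 2123 of all 16524 genes tested were higher in ODD and EVEN, so the lists held no larger share of such calls.

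The nuclear-encoded subunits also differed between experiments. In experiment 1, 76 of 92 were above 0 in the pull-downs against Input, with a median of 0.28 (0.02 over all genes tested). In experiment 2, 81 of 92 were below 0, with a median of -0.50 (-0.04 over all genes tested). The difference between experiments was below 0 for 85 of 92 with a median of -0.87, and for 74 of 77 mitochondrial ribosomal proteins with a median of -0.64. The mitochondrially encoded members had a median of -1.84 in the same comparison and all genes tested one of -0.05. For mitochondrial RNA synthesis 11 of 14 genes were below 0, with a median of -0.21. For its processing and decay 16 of 32 were, with a median of 0.0058.

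The nuclear copies, of which 8 of 11 were tested, had no call against Input without the replicate block. Gm13340 had 1.11 ± 0.44 in LacZ (adjusted p = 0.228) and Gm29216 0.96 ± 0.46 (0.326). With the replicate block Gm28439 was lower in ODD, at -3.31 ± 0.85 (0.0337), and Gm13340 was higher in LacZ, at 1.04 ± 0.21 (0.0126). Each was 1 of 8, beside 6.55% of all genes lower in ODD and 2092 of 16524 higher in LacZ. The counts of Gm13340 were 251 and 188 in the Inputs, 214 and 168 with LacZ, 176 and 83 with ODD, and 189 and 100 with EVEN.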

How the data were processed

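The 8 libraries were prepared from total RNA with a strand-keeping kit and ribosomal RNA depletion, as the labels' protocols state. The authors deposited read counts per Ensembl gene and FPKM values, which were equal to counts divided by gene length and library total (largest relative difference 6.66e-14). The submitters' processing notes name cutadapt 3.2, Bowtie2 2.4.2, Picard, HTSeq 0.13.5 and GRCm38, without settings. Multiple mapping, strand and the tRNA and rRNA annotation used in counting can therefore change the values. Symbols, coordinates and transcript sequences came from GENCODE M21 (GRCm38). The members and gene lists were chosen with earlier results of these data known.

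The test was edgeR's (version 4.0.16, R 4.3.3; quasi-likelihood, group as the only term, all 8 libraries, TMM, filterByExpr, Benjamini-Hochberg over 16524 genes). Standard errors are the size of a log2 change divided by the square root of its F statistic. TMM factors were 0.965 to 1.03. Total counts of 7632775 to 24628435 set the counting error. The p-values measure the spread between 2 experiments of 1 cell line. Replicate numbers mark independent experiments, given as batch in the labels, and deviations of same-numbered libraries correlated with r of 0.534 to 0.765 over 6 pairs of groups. Alternatives were a replicate block, the block with a GC trend removed (natural spline, 5 degrees of freedom), RLE and total-count scaling, other filters, DESeq2 1.42.0, limma 3.58.1 on log2(FPKM + 1) and log2(FPKM + 0.1), only the groups compared, adding nuclear copies to their member, and leaving out each library. The fit of the difference between experiments, which has 4 residual degrees of freedom, and its alternatives were chosen after seeing the data.

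Nuclear copies were found with blastn 2.17.0 (at least 100 bases, 95% identity) between annotated transcripts and the members' joined sequence. Named with values in every library were the coding and rRNA genes and the tRNA genes that passed the filter or, failing that, the 5 of largest count, of which only mt-Tm had any. The 5 nearest profiles, the 2 largest changes in LacZ per list and the 6 copies of largest count were also named. The test was checked on simulated LacZ against Input counts with 200 changed genes. At a log2 change of 2, 73.5% were recovered (16237 genes run, 7 of 154 calls false), and at 3, 97.5% (16221 genes, 9 of 204). These rates are not those of the members, whose standard errors against Input were 0.54 to 1.17.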

Additional observations from a re-analysis of the deposited data

Results flagged for a closer look

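In the fit with 3 pull-downs and 1 Input an experiment, the change from Input to pull-down differed between the experiments for 8 members (edgeR's quasi-likelihood test of the difference). This fit was chosen after the ratios to Input had shown the same separation, and a single Input has no spread of its own, so the values are a description of these libraries and no independent test. On the log2 scale, experiment 2 minus experiment 1 was -3.53 for mt-Rnr1, -2.46 for mt-Nd1, -2.54 for mt-Nd2, -1.18 for mt-Co1, -2.13 for mt-Nd4, -2.29 for mt-Nd5, -1.35 for mt-Nd6 and -1.84 for mt-Cytb. mt-Rnr1 rests on 68 counts over all libraries.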

How the results depend on the processing

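The replicate block raised the number of members called against Input from 0 to 2 in LacZ, 4 in ODD and 4 in EVEN, the block with the GC trend removed to 7, 8 and 7, no filter on low counts to 5, 7 and 7 of 16 members then tested (1.14%, 0.979% and 0.784% of all genes were lower), and DESeq2 to 2, 3 and 3. All of these calls were lower, and every other alternative, leaving out each library included, gave 0 in the 3 comparisons. By DESeq2, 1.39%, 1.28% and 1.26% of all genes were lower in LacZ, ODD and EVEN. The block changed no call against LacZ. Removing the GC trend moved the median of all genes to -0.17, -0.16 and -0.14, so the members' medians of -2.71, -2.91 and -2.65 are to be read against these. For experiment 2 against experiment 1, 2 of 11 members were called (12.4% of all genes were lower) and 6 of 16 without a filter (8.21%). On log2(FPKM + 1) limma called 1 (10.8%) and on log2(FPKM + 0.1) 1 (11.2%). Leaving out 1 library gave 0 to 10, beside 5.61% to 20.1% of all genes. The difference between experiments was called for 3 to 9 members when 1 pull-down was left out. The difference in coding share ranged from -0.311 to -0.109 percentage points when 1 library was left out. The difference in rRNA share ranged from -1.93e-05 to 5.87e-05 percentage points and that of tRNA from -4.87e-06 to 0 when 1 library was left out. Directions turned for genes near 0. With the block and the GC trend removed, mt-Co1 had -0.90 in LacZ and -0.81 in EVEN, mt-Co2 -0.54 and -0.85, mt-Co3 -0.56 in LacZ and -0.72 in ODD, mt-Rnr1 -1.51 in LacZ and Pnpt1 -0.30. With the replicate block alone, mt-Co1 had -0.17 in LacZ and -0.12 in EVEN. mt-Co1 had -0.016 in LacZ and -0.033 in EVEN without a filter, -0.082 and -0.075 with limma on log2(FPKM + 1), and -0.082 and -0.075 on log2(FPKM + 0.1), where mt-Rnr1 in LacZ had -0.15. In EVEN mt-Co1 had -0.022 with RLE size factors, -0.012 with total library size and -0.022 with DESeq2. With nuclear copies added, mt-Co3 had -0.10 in ODD and mt-Co2 -0.092 in EVEN. When 1 library was left out, mt-Co1 ranged from -0.82 to 0.56 in LacZ, -0.82 to 0.31 in ODD and -0.47 to 0.35 in EVEN. mt-Co2 ranged from -0.43 to 1.19, -0.36 to 0.27 and -0.66 to 0.68 in the same order, and mt-Rnr1 from -1.93 to 1.17, -1.78 to 0.083 and -2.81 to 0.56. mt-Co3 ranged from -0.60 to 1.16 in LacZ and -1.13 to 0.44 in EVEN, and mt-Atp6 from -0.84 to 0.11 between experiments. The median of the members ranged from -1.07 to 0.46 in ODD against LacZ and from -1.25 to 0.59 in EVEN against LacZ. The cause of these shifts was not tested. Of the 26 members left out by the filter, 5 were tested without it, and 21 had no count in any library.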
